A study of Mus musculus with 8 samples.

Results

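The genes described here encode chaperones and proteases that fold, refold and degrade proteins inside mitochondria. They are Hspd1, Hspe1, Hspa9, Grpel1, Dnaja3, Trap1, Lonp1, Clpp, Clpx and Afg3l2. They were taken by gene name, as classical genes of the mitochondrial unfolded protein response, and make up 10 of the 55383 rows of the table of normalized counts. All 10 passed the filter on low values, which asked for 10 normalized counts or more in 2 or more libraries. A normalized count is the number of reads of a gene divided by a size factor that puts the libraries on a common scale.

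Total RNA of whole hearts was sequenced in strand-specific TruSeq libraries from mice at 5 weeks of age on an inbred C57BL/6N nuclear background. The comparison asks how heart RNA differs when Ssbp1, which encodes the protein mtSSB that coats single-stranded mitochondrial DNA, is disrupted. By design, knockout hearts (labelled Ssbp1-/-) came from mice with loxP sites around exon 3 of both Ssbp1 alleles and a Cre recombinase under the muscle creatine kinase promoter (L/L, cre). Control hearts (labelled Ssbp1+/+) carried the loxP-flanked alleles without Cre (L/L). Every label mentions breeding to Cre animals without naming the carriers of Cre, so the groups follow the genotype labels. This Cre acts in heart and skeletal muscle cells, and a whole heart also holds endothelial cells, fibroblasts and blood cells that keep Ssbp1. In such bulk RNA, fewer cells of a type and less RNA per cell cannot be told apart. The labels give the same genotype throughout for 2 control and 2 knockout hearts, which are compared here. For the other 2 mice, 585H and 586H, title and genotype field contradict each other, and they were left out of the groups.

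Most mitochondrial proteins are made in the cytosol, imported unfolded and folded in the matrix by an HSP60-HSP10 chamber (Hspd1, Hspe1) and by mitochondrial HSP70 (Hspa9) with its co-chaperones. ATP-dependent proteases (Lonp1, the Clpx-Clpp complex and the inner membrane m-AAA protease) remove misfolded or unneeded proteins. When misfolded proteins accumulate in mitochondria, cells can raise the transcription of these nuclear genes, a program called the mitochondrial unfolded protein response, while a partly separate program through the transcription factor ATF4, the integrated stress response, acts on amino acid and one-carbon metabolism.

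Reads assigned to genes, as recovered from the normalized counts, numbered 24067849 and 19716305 in control replicates 1 and 2. In knockout replicates 1 and 2 they numbered 25558246 and 25682093. Mitochondrial transcripts took 62.7% and 66.7% of these reads in the controls against 58.0% and 56.2% in the knockouts. This share was lower in both knockouts, and its part in the values below was not tested; with libraries scaled to equal totals of nuclear genes, the median log2 fold change of the 10 genes was 0.22. Between 6568812 and 11259234 reads per library fell on nuclear genes. The 10 genes had between 180 reads (Clpp, control replicate 2) and 10518 reads (Hspa9, knockout replicate 2) in a library. Cardiomyocyte markers summed to normalized counts of 588808 to 624715 in control hearts against 596200 to 620432 in the knockouts, and 0 of 8 separated the groups. Skeletal muscle was not detectable by Myh1, at 0 in all 4 hearts, and 3 of its 5 markers stayed under 10. Acta1 and Myl1 were lower in both knockouts than in both controls (17.5% of all genes). Myl1 passed in DESeq2 (adjusted p = 0.00379) and not in limma (0.53). Myh4 and Tnnt3, both under 10, were higher in both knockouts (18.1% of all genes). Markers of red blood cells summed to 41866 in knockout replicate 2, against 14398 to 18944 in the other 3 hearts. The fibroblast sum was 12781 to 13595 in control hearts against 9805 to 12333 in the knockouts. The macrophage sum overlapped, at 2329 to 3371 in control hearts against 2329 to 2363 in the knockouts. In each of these lists 3 of 6 markers were lower in both knockouts than in both controls (17.5% of all genes). A positive log2 fold change was fitted for 0 of 6 fibroblast and 2 of 6 macrophage markers. Of the other lists, 1 of 6 endothelial markers (Tie1) was higher in both knockouts (18.1% of all genes), and smooth muscle and pericyte markers overlapped in 5 of 5. T and B cell markers summed to 230 to 310 in control hearts against 240 to 321 in knockout hearts. Of these 5 markers, 1 (Cd3g, under 10) was higher in both knockouts (18.1% of all genes). The part of cell composition in the values below was not tested.

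The targeted gene, Ssbp1, stood at 177 and 216 normalized counts in control hearts and at 170 and 163 in knockout hearts. Both knockouts lay below both controls, with a log2 fold change of -0.23 (SE 0.16) that did not pass the test (adjusted p = 0.89 from limma). The count covers all exons of the gene, so it does not measure the deleted exon on its own.

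The genes are spread over the genome and some stand near each other (build GRCm38). Hspd1 (chr1:55077835-55088243, minus strand) and Hspe1 (chr1:55088132-55091307, plus strand) stand head to head and overlap by 112 bases on opposite strands. Trap1 (chr16:4039971-4077827, minus) and Dnaja3 (chr16:4639989-4707695, plus) share chromosome 16. Lonp1 (chr17:56614297-56626887, minus) and Clpp (chr17:56990305-56996188, plus) lie 363.4 kb apart. Grpel1 is at chr5:36464998-36474080 (plus) and Clpx at chr9:65294260-65330658 (plus). The annotation of Dnaja3 overlaps Vasn on the same strand over 10814 bases, so reads could be split between them. Hspd1, Hspe1 and Hspa9 have pseudogenes in the table, so reads that fit a pseudogene and its parent gene are uncertain.

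RefSeq start sites on GRCm38.p6 gave 9 promoter windows of 300 bases (250 before to 50 after the start) for 8 of the 10 genes; Hspd1 has 2, and Hspa9 and Afg3l2 have none in the table. These sequences show the letters found before Hspe1, Trap1 and Lonp1, written 5′ to 3′ on the strand of the gene, with the motif in capitals. The stretch before Hspe1 (chr1:55088053-55088082) is also upstream of one of the Hspd1 starts and holds a pair of overlapping heat shock elements. The Trap1 stretch (chr16:4077839-4077868) and the Lonp1 promoter (chr17:56626903-56627153, ending on the start base) each hold a CRE/ATF element, a binding motif of ATF and CREB factors.
Hspe1: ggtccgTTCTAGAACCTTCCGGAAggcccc
Trap1: gtcgcgcgccaTGACGTCActgagccgccc
Lonp1: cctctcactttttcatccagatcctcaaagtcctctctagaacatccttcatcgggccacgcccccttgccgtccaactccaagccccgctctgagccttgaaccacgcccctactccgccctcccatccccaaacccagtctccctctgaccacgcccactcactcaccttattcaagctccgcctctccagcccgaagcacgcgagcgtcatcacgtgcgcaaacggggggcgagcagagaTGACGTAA
Motifs were searched on both strands. The heat shock element, searched as GAA, TTC and GAA each separated by 2 bases, was found in windows of Hspd1 and Hspe1 and in 0.603% of all 32851 windows. In Hspe1 the matches begin 89 and 84 bases upstream of the start, and in Hspd1 144 and 139 bases upstream of one start. The CRE/ATF element (TGACGTNA), a motif added after these sequences had been read, was found in Lonp1, beginning 7 bases upstream and ending on the start base, in Trap1, beginning 47 bases upstream, and in 2.93% of all windows. The C/EBP-ATF response element (TGATGNAA) was in 0 of the 9 windows and in 3.97% of all. The NRF1 core, GCGCA and GCGC separated by 1 base, was in Hspd1 and Dnaja3 (4.6% of all windows), and CCAAT was in Hspd1, Grpel1, Dnaja3 and Clpx (37.4% of all windows). These matches describe letters, and binding was not measured.

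Per length of transcript, the control hearts held most RNA of the folding machines and least of the exchange factor. The normalized count per kb of the principal GENCODE transcript was 1919 for Hspa9, 1204 for Hspd1 and 694 for Hspe1 as the mean of 2 controls. Dnaja3 (478 per kb) and Trap1 (446 per kb) overlapped between hearts, as did Lonp1 and Afg3l2, both at 367 per kb. Clpx (289 per kb) and Clpp (268 per kb) overlapped too, and Grpel1 was lowest at 179 per kb. All other neighbours in this order were separate in the 2 controls. The order depends on the transcript taken as principal. The count of Grpel1 was divided by a length of 3528 bases, and its undivided control mean of 631 was above those of Hspe1 (537) and Clpp (263). In the knockouts Lonp1 reached a mean of 582 per kb, above the means of Dnaja3 (552) and Trap1 (491). The knockout hearts overlapped between Lonp1 (624 and 540 per kb) and Dnaja3 (578 and 526 per kb). They were separate between Lonp1 and Trap1 (522 and 459 per kb).

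**Figure D1:**
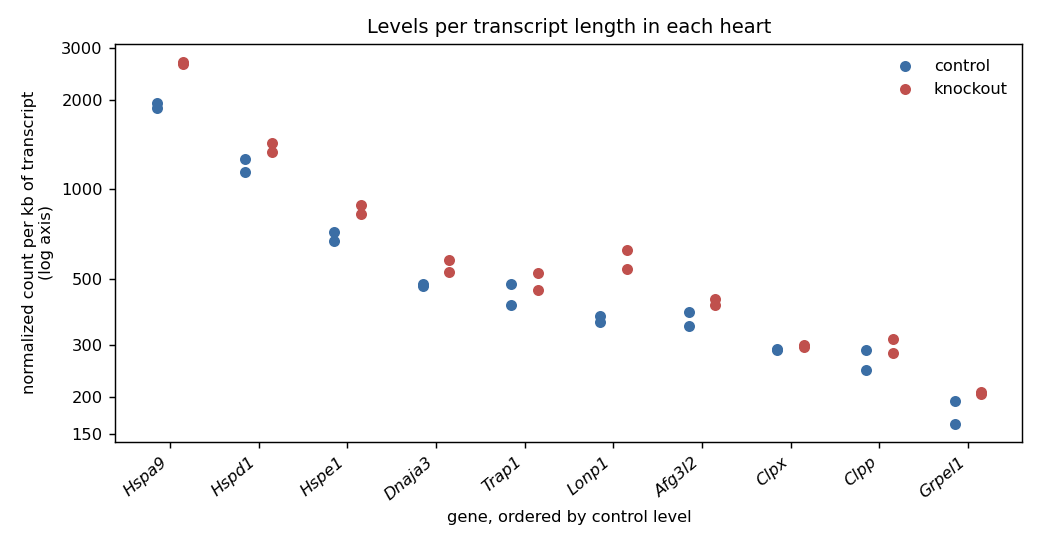
Normalized count per kb of transcript on a log axis for each gene in the 2 control (blue) and 2 knockout (red) hearts, ordered by the control mean; each point is 1 heart. Hspa9 was highest in both groups, at 1919 per kb in controls and 2660 per kb in knockouts, and Grpel1 lowest, at 179 and 206 per kb.

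Against the controls, all 10 genes had a higher fitted level in the knockouts, by 0.04 to 0.66 on the log2 scale, and both knockouts lay above both controls in 8 of them. Among all 14522 genes tested both knockouts lay above both controls in 18.1%. The median log2 fold change was 0.20 for the 10 genes and 0.0024 for all genes tested. No single gene of the 10 passed limma at an adjusted p of 0.05, where 0.0757% of all genes were called higher and 0.0413% lower. EdgeR also called 0 of 10 (0.0895% of all genes higher and 0.0413% lower). DESeq2 on the recovered reads called 2, Lonp1 and Hspa9, both higher (0.296% of all genes higher and 0.131% lower). At an unadjusted p under 0.05 in limma there were 3 (Lonp1, Hspa9 and Hspe1), all higher, against 3.08% of all genes higher and 3.02% lower. The genes were read in the same 4 hearts, so they are not independent of each other, and the call on the pair of genes with the largest differences depends on the test.

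**Figure D2:**
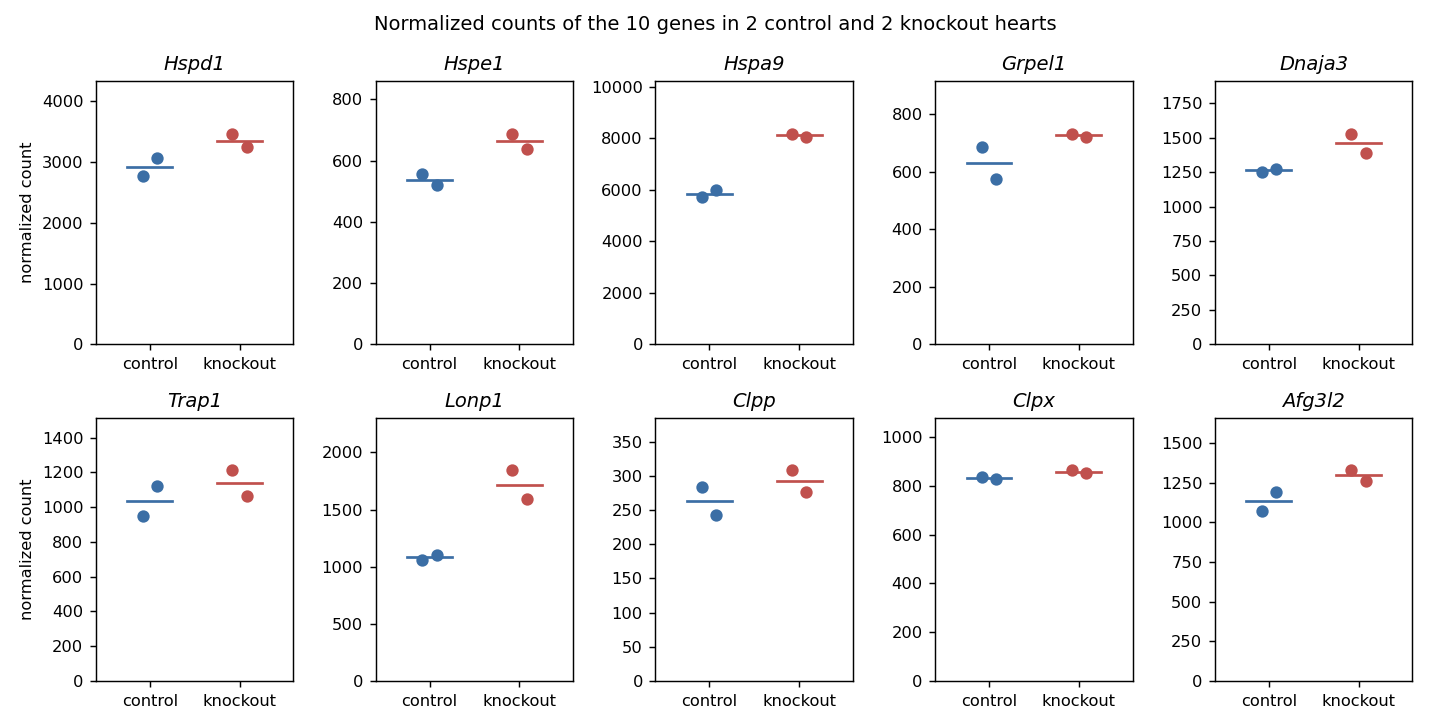
Normalized counts of the 10 genes in each heart, with each axis starting at 0; points are hearts and the line is the mean of 2. The knockout points lie above the control points in 8 panels, and the groups overlap for Trap1 and Clpp.

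Lonp1, the ATP-dependent protease of the matrix that degrades oxidised and misfolded proteins and binds mitochondrial DNA, measured 1057 and 1106 normalized counts in control hearts and 1843 and 1594 in knockout hearts. Both knockouts were well above both controls, and the difference within the knockouts was larger than that within the controls. The means were 1082 ± 34.3 and 1719 ± 176 (SD, n = 2 each), a ratio of 1.59. The log2 fold change was 0.66 (SE 0.11, 95% interval 0.41 to 0.92), with an adjusted p of 0.259 in limma (Benjamini-Hochberg). The adjusted p was 0.26 in edgeR and 0.000376 in DESeq2. It ranked 39 of 14522 genes by p.

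Hspa9, mitochondrial HSP70 or mortalin, which pulls proteins through the import channel and folds them, had control values of 5728 and 5975 normalized counts and knockout values of 8177 and 8047. The groups were separated by far more than the hearts of a group differed. The means were 5852 ± 174 and 8112 ± 92.1 (SD, n = 2 each), 38.6% higher in the knockouts. The log2 fold change was 0.47 (SE 0.076, 95% interval 0.29 to 0.66), with an adjusted p of 0.261 in limma, 0.313 in edgeR and 0.000343 in DESeq2. It came next to Lonp1, at rank 40 by p. With the 2 other mice added by their genotype field, both genes passed limma (adjusted p of 0.0295 for Hspa9 and 0.0259 for Lonp1), and with them added by title neither did (0.999 for each). Hspa9 and Lonp1 together made up 71.1% of the summed difference of the 10 genes. The remaining 8 had a median log2 fold change of 0.20, and both knockouts lay above both controls in 6 (18.1% of all genes).

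Hspd1 (HSP60) forms the barrel-shaped folding chamber and Hspe1 (HSP10) its lid. Hspd1 gave 2772 and 3065 normalized counts for the control hearts and 3468 and 3241 for the knockout hearts. Both knockouts lay above both controls, with a log2 fold change of 0.20 (SE 0.092, 95% interval -0.022 to 0.43, adjusted p = 0.809 in limma). Hspe1 stood at 555 and 519 in control hearts against 688 and 639 in knockout hearts. Its log2 fold change was 0.30 (SE 0.11, 95% interval 0.039 to 0.57), which passed in limma before adjustment and not after it (adjusted p = 0.796). The ratio of Hspd1 to Hspe1 within a heart was 4.99 and 5.91 in control hearts against 5.04 and 5.07 in knockout hearts, and overlapped between the groups (exact permutation test, two-sided, p = 1.0). With 2 hearts against 2 the smallest p that test can give is 0.333.

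The co-chaperones of Hspa9 had smaller fitted differences than Hspa9 itself. Grpel1, the nucleotide exchange factor that resets Hspa9, measured 686 and 575 normalized counts in control hearts and 733 and 722 in knockout hearts. Dnaja3, a J-domain protein that hands substrates to Hspa9, had control values of 1253 and 1277 and knockout values of 1531 and 1393. For both genes the knockouts lay above the controls, by 0.21 on the log2 scale (SE 0.12 for Grpel1 and 0.095 for Dnaja3), and neither passed limma (adjusted p of 0.845 and 0.809). Trap1, the mitochondrial HSP90, gave 951 and 1120 for the control hearts and 1212 and 1065 for the knockout hearts, and the groups overlapped (log2 fold change 0.14, 95% interval -0.16 to 0.44, adjusted p = 0.909). The ratio of Hspa9 to Grpel1 was 8.35 and 10.4 in control hearts against 11.2 and 11.1 in knockout hearts, 1.20 times as high (exact permutation p = 0.333, the smallest possible).

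The Clp protease genes had the smallest differences beside Trap1. Clpp, the proteolytic chamber, stood at 283 and 242 normalized counts in control hearts against 308 and 277 in knockout hearts, and the groups overlapped (log2 fold change 0.16, 95% interval -0.20 to 0.51, adjusted p = 0.914 in limma). Clpx, the unfoldase that feeds the chamber, measured 836 and 830 in control hearts and 863 and 851 in knockout hearts. The 4 values of Clpx lay close together, and the fitted difference of 0.04 on the log2 scale had a 95% interval of -0.19 to 0.27. Afg3l2, a subunit of the m-AAA protease of the inner membrane, had control values of 1073 and 1195 and knockout values of 1329 and 1265. Both knockouts were above the controls, by 0.19 on the log2 scale (SE 0.10, adjusted p = 0.822 in limma).

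Within a heart, the protease genes were also set against each other. Lonp1 to Clpp was 3.73 and 4.56 in control hearts against 5.98 and 5.76 in knockout hearts, 1.42 times as high, with both knockouts above both controls (exact permutation p = 0.333, the smallest possible). Clpx to Clpp was 2.95 and 3.42 in control hearts against 2.80 and 3.07 in knockout hearts, and overlapped (exact permutation p = 0.667).

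**Figure D3:**
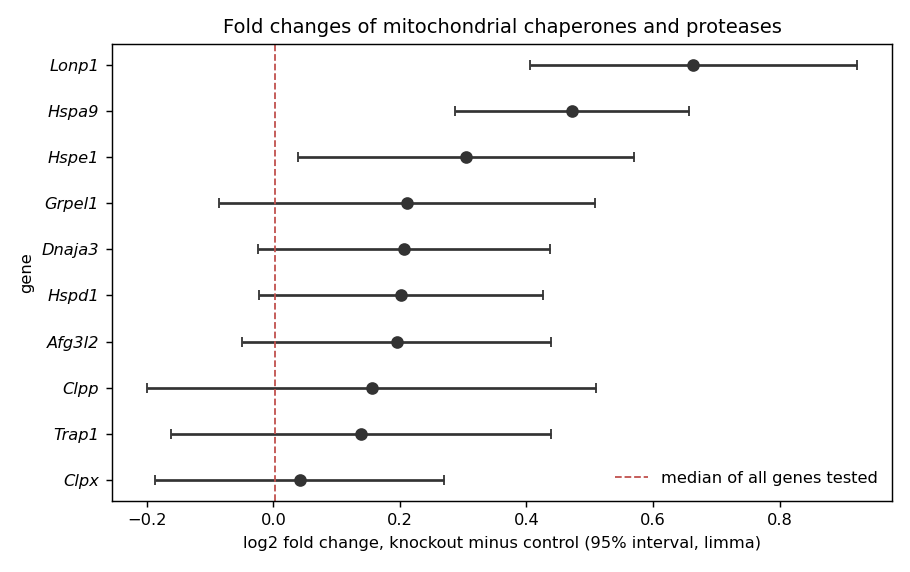
Log2 fold change of knockout over control for each gene with its 95% interval from limma (2 hearts per group); the dashed line is the median of all genes tested, 0.0024. The intervals of Lonp1, Hspa9 and Hspe1 lie above 0, and those of the other 7 genes include it.

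By role, 5 of the 6 chaperones and co-chaperones and 3 of the 4 protease genes were above both controls in both knockouts. The share among all genes tested was 18.1%. The protease count includes Clpx, whose fitted difference was only 0.04 on the log2 scale (unadjusted p = 0.676 in limma). The summed normalized count of the chaperones was 11945 and 12530 in control hearts against 15808 and 15107 in knockout hearts. That of the proteases was 3250 and 3373 in control hearts against 4343 and 3987 in knockout hearts. As a share of RNA from nuclear genes, the 10 genes together held 1.73 and 1.80 per 1000 normalized counts in control hearts and 2.28 and 2.22 in knockout hearts, higher in both of the latter. Hspa9 alone was 37.7% and 37.6% of the summed counts of the 10 genes in control hearts against 40.6% and 42.1% in the knockouts.

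Within the knockouts, all 10 genes were lower in replicate 2 than in replicate 1, with a median log2 difference of -0.10. Of all genes tested, 50.3% were lower in that heart, with a median difference of -0.0021. It is the heart with the high red blood cell markers, whose part was not tested. Without it the median log2 fold change of the 10 genes was 0.24, and without knockout replicate 1 it was 0.16. Between the controls, 6 of 10 genes were higher in replicate 2, and the median size of the log2 difference was 0.12.

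Hspd1 served as a reference pattern for likeness over the 4 hearts. Of 10625 genes averaging 50 normalized counts or more, those whose centred log2 values lay nearest to it by Euclidean distance were Rufy3 (0.0174), Dars (0.0193), Afg3l2 (0.0211), Trpc1 (0.027) and Gsto1 (0.0296). Dars encodes the cytosolic aspartyl-tRNA synthetase and Gsto1 a glutathione transferase. By the same measure Dnaja3 stood at rank 126, Trap1 at rank 260, Hspe1, the partner of Hspd1, at rank 1518 and Clpx at rank 1546. Clpp (3041), Hspa9 (3366), Grpel1 (3515) and Lonp1 (7379) ranked farther away. The distance rests on 4 values per gene and takes in the size of a change as well as its shape. Lonp1 and Hspa9 differed from Hspd1 in size, at log2 fold changes of 0.66 and 0.47 against 0.20. For Lonp1 and Hspa9 a far rank is thus not a different direction. Grpel1 was close to Hspd1 in size, at a log2 fold change of 0.21. Its values in control replicates 1 and 2 ran in the opposite order (686 and 575, against 2772 and 3065 for Hspd1).

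Other mitochondrial chaperones and co-chaperones were more mixed in direction. Of 11 tested, limma, edgeR and DESeq2 called 0, and 4 were above both controls in both knockouts (18.1% of all genes). The median log2 fold change was 0.06. Grpel2, the second exchange factor of Hspa9, gave 241 and 209 normalized counts for the control hearts and 273 and 314 for the knockout hearts. It was the 1 gene that passed before adjustment (log2 fold change 0.38, adjusted p = 0.806, limma), where 3.08% of all genes were higher. Dnajc28 was at -0.30 and Dnajc11 at 0.22 on the same scale (adjusted p of 0.809 and 0.876). Whether the lists differ was not tested.

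Of 18 other mitochondrial proteases and peptidases, including the prohibitins that enclose the m-AAA protease, 0 were called by limma, edgeR or DESeq2, and 0 had an unadjusted p under 0.05. The median log2 fold change was 0.079, and 4 were above both controls in both knockouts (18.1% of all genes). The smallest p-values belonged to Pitrm1, which degrades presequence peptides, Yme1l1, the i-AAA protease, and Mipep, an intermediate peptidase, at log2 fold changes of 0.17, 0.16 and 0.15 (adjusted p of 0.877, 0.882 and 0.89 in limma).

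Among 10 regulators tied to the mitochondrial unfolded protein response, Atf5 rose. Atf5, the transcription factor likened to the worm regulator ATFS-1, stood at 187 and 154 normalized counts in control hearts against 742 and 597 in knockout hearts. Its log2 fold change was 1.97 (SE 0.17, adjusted p = 0.0255 in limma, 0.0266 in edgeR), and the call was lost in 3 of 4 fits that left out 1 heart (all but the one without control replicate 1; highest adjusted p 0.0964). Atf4 measured 513 and 455 in control hearts and 1007 and 1192 in knockout hearts, a log2 fold change of 1.18 that missed the threshold in limma (adjusted p = 0.0602) and edgeR (0.0558) and passed it in DESeq2 (1.31e-09). Limma called Atf4 with a filter of 50 in 2 libraries (adjusted p = 0.0408) and with 6 mice grouped by the genotype field (0.00195). Ddit3, the gene for CHOP, had control values of 86.0 and 60.6 and knockout values of 119 and 129 (log2 fold change 0.77, adjusted p = 0.704 in limma). The other 7 regulators had unadjusted p-values above 0.05, with Hsf1, the heat shock factor, at 0.20 on the log2 scale and overlapping between groups. The median of the 10 was 0.076.

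Genes of the mitochondrial integrated stress response were mostly higher in the knockouts. Of its 15 genes, 14 were above both controls in both knockouts (18.1% of all genes), 12 were higher at an unadjusted p under 0.05 (3.08% of all genes), and the median log2 fold change was 2.11, unaltered with Fgf21, at 0 in the controls, set to a bound of at least 5.22-fold (a floor of 3 reads per library). Limma called 4 (0.0757% of all genes were called higher) and edgeR 5, with Gdf15 added (0.0895% of all genes). DESeq2 called 7, with Gdf15, Asns and Psat1 added (0.296% of all genes), and gave no adjusted p for Fgf21 and Mthfd1l. Each called gene was higher in the knockouts. Mthfd2, a mitochondrial folate enzyme, rose from 25.4 and 22.9 to 413 and 430 normalized counts (log2 fold change 4.07, adjusted p = 0.00148 in limma). Phgdh, which opens the serine pathway, rose by 3.76 on that scale (adjusted p = 0.0075), Trib3, a pseudokinase, by 3.03 (0.0401) and Aldh18a1, which starts proline synthesis, by 1.58 (0.0337). The call on Mthfd2 held without any 1 heart, those on Trib3 and Aldh18a1 were lost in 3 of 4 such fits (all but that without control replicate 1; highest adjusted p 0.331 and 0.327 in limma) and that on Phgdh in 2 of 4 (without either knockout; highest 0.11). On the same scale the list ran from 0.36 to 4.58, and Lonp1, the highest of the 10 chaperones and proteases, was at 0.66. The difference between the lists was not tested.

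**Figure D4:**
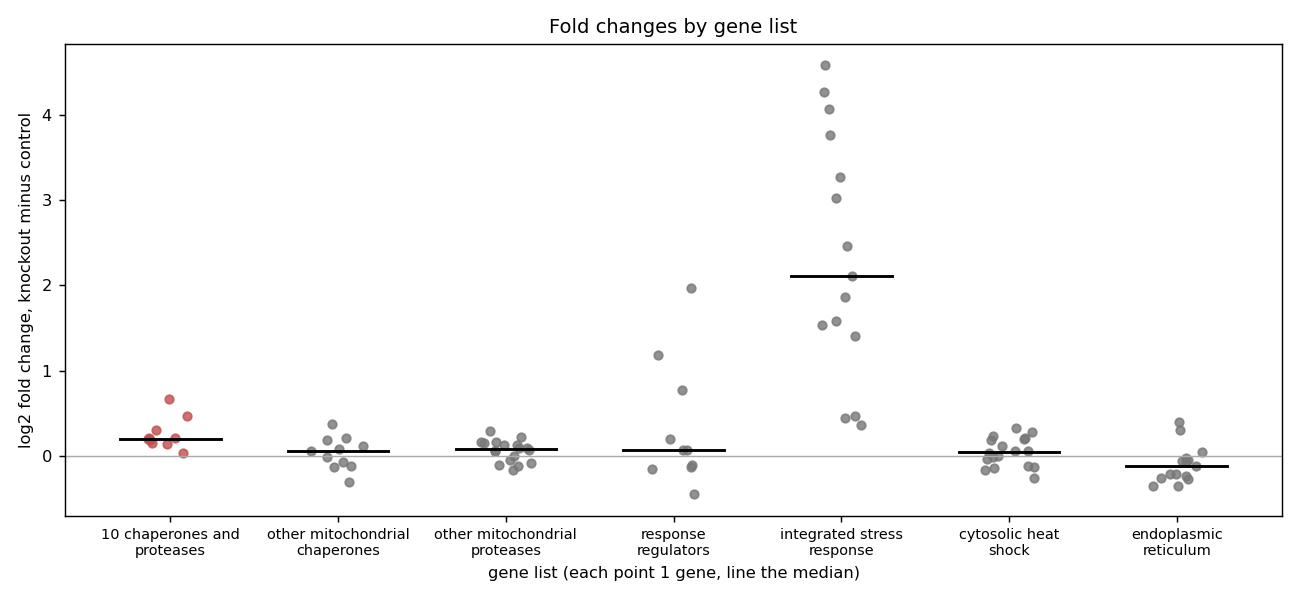
Log2 fold change of knockout over control by gene list; each point is 1 tested gene and the line is the median of the list. The medians were 0.20 for the 10 chaperones and proteases, 0.06 and 0.079 for the other mitochondrial chaperones and proteases, 0.076 for the regulators, 2.11 for the integrated stress response, 0.048 for cytosolic heat shock genes and -0.12 for endoplasmic reticulum chaperones.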

How the data were processed

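The authors mapped reads with STAR 2.7.3a to a GRCm38.p6 genome in which nuclear copies of mitochondrial sequence were masked, and quantified genes with Salmon 1.1.0 (GENCODE vM24 plus their own mitochondrial annotation). DESeq2 1.26.0 gave the size factors. The deposited signal values are these normalized counts; 100% were whole multiples of 1 read within 0.001, so reads were recovered. A second deposited file, the authors' own comparison, was not used.

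Members and lists were chosen with earlier results of these data known. Groups came from the labels. The 14522 genes reaching 10 normalized counts in 2 or more of 4 libraries were tested two-sided with limma 3.58.1 (R 4.3.3, trend option on) on log2(normalized count + 1), which understates changes of low genes, with Benjamini-Hochberg adjustment at 0.05. The labels number the hearts as biological replicates. Ratios were compared by exact permutation. Recovered reads were tested with edgeR 4.0.16 (quasi-likelihood, TMM) and DESeq2 1.42.0. Tests were run on simulated data first. Other alternatives changed the pseudocount, filter, scaling, trend and samples. Named genes were all 10 members, Ssbp1, limma's called genes and the 3 smallest p-values per list, and the 5 genes nearest to Hspd1. Hsf1, Fgf21, Mthfd1l, Gdf15, Asns, Psat1, Hspa8, Tie1, Cd3g, Vasn, Acta1, Myl1, Myh1, Myh4 and Tnnt3 were named after their values were seen. Sequences are from RefSeq on GRCm38.p6, and positions and lengths from GENCODE vM21 on GRCm38. Figures used Python 3.11.15 and matplotlib 3.10.9.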

Additional observations from a re-analysis of the deposited data

Results flagged for a closer look

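Mice 585H and 586H, each the combination of 2 technical runs, entered no group, because their title and genotype field contradict each other. Values of the 10 genes above both controls are given for them, as data outside the comparison. In 585H, 9 of 10 genes were above both controls, as were 33.8% of all 14522 genes tested. Among the chaperones, its normalized counts were 9092 for Hspa9, 3698 for Hspd1, 664 for Hspe1, 1571 for Dnaja3 and 1154 for Trap1. Among the proteases they were 2038 for Lonp1, 308 for Clpp, 1054 for Clpx and 1341 for Afg3l2. Grpel1, at 619, lay between the controls. In 586H, 5 of 10 were above both controls, as were 33.6% of all genes tested, with normalized counts of 6248 for Hspa9, 1282 for Dnaja3, 1171 for Lonp1, 965 for Clpx and 1211 for Afg3l2, and the other 5 lay between the controls. Lonp1 in 585H was 1.88 times the control mean and in 586H 1.08 times. Hspa9 was 1.55 times in 585H and 1.07 times in 586H. Mitochondrial transcripts took 56.2% of the reads assigned to genes in 585H and 63.6% in 586H. The shares were 62.7% and 66.7% in control hearts and 58.0% and 56.2% in knockout hearts. With these mice added, the log2 fold change of Mthfd2 was 4.11 by the genotype field and 1.32 by title. Their group was not taken from these values.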

How the results depend on the processing

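The calls, the log2 fold changes and the median of the 10 genes were recomputed under 15 alternatives. Ratios within a heart, levels per kb, marker sums, nearest genes and motif matches were not. The 10 genes had 0 calls in all but 2 of the alternatives. DESeq2 on recovered reads called 2 (Hspa9 and Lonp1), and so did limma on 6 mice grouped by the genotype field, where 0.256% of all genes were called higher (adjusted p of 0.0295 for Hspa9 and 0.0259 for Lonp1). With the 6 mice grouped by title the median log2 fold change of the 10 genes was 0.079, and the adjusted p was 0.999 for both genes. Atf5, Trib3, Phgdh, Mthfd2 and Aldh18a1 lost their calls by title, and Atf5, Trib3 and Aldh18a1 also without a mean-variance trend. Trib3 lost its call as well with all genes above 0 tested (adjusted p = 0.0536) and with equal totals of nuclear genes (0.0516). Over all 15 alternatives the log2 fold change of Lonp1 was 0.18 to 0.77 and that of Hspa9 0.13 to 0.50. The 10 genes kept a positive sign throughout, except Clpx by title (-0.015). Leaving out 1 heart (the lone heart then assumed to vary like the other group) gave medians of 0.16 to 0.26.

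Over all genes, limma called 17 (11 higher, 6 lower). The count was 6 to 33 without 1 heart, 51 by the genotype field, 0 by title (379 at an unadjusted p under 0.05), 6 without a mean-variance trend and 62 in DESeq2. With the replicate number as a block it was 30 (23 higher, 7 lower), with 0 of the 10 genes called and Atf4 passing (adjusted p = 0.0238). Same-numbered hearts shared only a number: there were 2 pairs, and their deviations correlated at 0.3135 over genes. The causes of these shifts were not tested. Clpp, at 180 to 374 reads in a library, was the least deeply read of the 10 genes.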

Other observations

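Chaperones of other compartments were read beside the mitochondrial ones. Of 15 endoplasmic reticulum chaperones and folding enzymes, limma, edgeR and DESeq2 called 0. In limma 3 had an unadjusted p under 0.05, each lower in the knockouts (3.02% of all genes). The median log2 fold change was -0.12, and 6 were below both controls in both knockouts, where 17.5% of all genes were. Hspa5, the HSP70 of that compartment, gave 4224 and 3992 normalized counts for the control hearts and 3619 and 3469 for the knockout hearts (log2 fold change -0.21, adjusted p = 0.798 in limma). Pdia4, a disulfide isomerase, was at -0.35 and Calr, calreticulin, at -0.21 on the same scale (adjusted p of 0.773 and 0.806). Of 18 cytosolic heat shock chaperones, 0 were called by the same tests, and the median was 0.048. At an unadjusted p under 0.05 in limma, 1 was higher (3.08% of all genes) and 1 lower (3.02%). Hsp90aa1 stood at 1158 and 1254 in control hearts against 1392 and 1652 in knockout hearts (0.33, adjusted p = 0.788), Hspa4l was at -0.26 (0.798) and Hspa4 at 0.19 (0.815). Hspa8, the constitutive cytosolic HSP70, measured 11567 and 11699 in control hearts and 12353 and 11918 in knockout hearts.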
